A study of Mus musculus with 3 samples.

Results

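The 50 genes described here encode the machinery of DNA replication and mitosis, the cyclins and transcription factors that drive the cell cycle, and 5 inhibitors of cyclin-dependent kinases. They were chosen by symbol for these roles, with earlier results of these data known. All 50 of 50 were found among the 39179 genes of the deposited table. The RNA was from mouse embryonic stem cells with 2 reporters: eGFP for Cntn2 (contactin 2), a marker of cardiac Purkinje cells, and mCherry from a lentivirus under the αMHC promoter, that of the heart muscle myosin gene Myh6. The cells were differentiated in culture, treated with sodium nitroprusside at day 4, and sorted after 25 days into 3 populations. The GFP population was eGFP-positive with dim mCherry, the MHC population was mCherry-positive, and the NEG population was negative for both. All 3 populations share the cell line, the lentiviral reporter and the nitroprusside treatment, and the sources used here do not say whether the line is a single clone. With 1 library for each population, differences cannot be set against the spread of replicates, and no p-values were computed.

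Values are read counts per gene divided by a size factor per library, called levels below. The libraries held 47289405 to 52826956 recovered reads. Heart muscle markers were highest in MHC for all 7 genes examined, with a summed level of 12630 in GFP against 236697 in MHC and 8600.0 in NEG. In MHC, Myh6 alone gave 186924 of this sum, and mCherry under its promoter was used to sort that population. All 7 epicardial and mesothelial markers, of the outer lining of the heart and body cavities, were highest in GFP, where their sum was 158270 against 5651 in MHC and 5483 in NEG. The summed level of fibroblast and matrix markers stood at 1.33e+06 in GFP against 5.25e+06 in MHC and 5.27e+06 in NEG, but 2 of these 7, Dcn and Pdgfra, were highest in GFP (Dcn at 144191, 67849 and 62072, Pdgfra at 35383, 11080.2 and 9525). Smooth muscle markers summed to 3444 in GFP, 53628 in MHC and 53453 in NEG. Of 4 haematopoietic markers, 3 were highest in GFP, namely the macrophage genes Cd68 (1220.3, 503 and 252) and Csf1r (963, 336 and 334), and Ptprc. Csf1r shares reads with an overlapping gene, and Ptprc (10.1, 4.05 and 3.39) rests on 11, 4 and 3 reads. The remaining marker, Itgam, was lowest in GFP, at 262 against 400 in MHC and 427 in NEG. The pluripotency markers Pou5f1, Nanog, Sox2, Esrrb, Dppa5a and Utf1 lay between 0 and 21.9 in every library, and Zfp42 was at 7.31 in GFP against 709 in MHC and 11.3 in NEG. Whether cell type makeup had a part in the differences below was not tested.

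Before a cell divides, it copies its genome once. Origins are licensed in G1 when ORC, CDC6 and CDT1 load the MCM2-7 helicase, and in S phase CDC45 and the GINS complex turn it into the moving fork helicase while thymidylate synthase and ribonucleotide reductase supply the building blocks. The cyclin B and CDK1 kinase, the Aurora and Polo kinases, the spindle checkpoint and the kinesins then carry the cell through mitosis. Genes of the first wave are classic targets of E2F transcription factors. Those of the second wave are turned on later through NF-Y boxes and the cell cycle homology region (CHR), where a MuvB complex binds, first with B-MYB and then with FOXM1. Heart muscle cells largely leave the cell cycle around birth.

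Because the members are known to follow these 2 programmes, their promoters were searched for the matching letters. The RefSeq promoter table (GRCm38.p6, the same assembly as mm10) covers 250 bases before to 50 bases after a gene's start and held 41 of the 50 members. Mcm4, Gins2, Aurkb, Kif20a, Ccna2, Ccne2, Ccnd1, Ccnd2 and Foxm1 had no entry. Letters of E2F type (TTTNNCGC, either strand) occurred in 10 of 18 S phase genes (55.6%), 1 of 14 mitosis genes (7.14%) and 5.93% of the 27025 genes in the table. CHR-type letters (TTTGAA or TTCGAA, either strand) occurred in 4 of the 18 S phase genes (22.2%), 11 of the 14 mitosis genes (78.6%) and 21.7% of all genes. CCAAT, the core of an NF-Y box, occurred in 14 S phase genes (77.8%), 13 mitosis genes (92.9%) and 41.1% of all genes. Counted by promoter rather than by gene, 5.17%, 19.2% and 37.4% of the 32851 promoters of this length held the E2F, CHR and NF-Y letters. The median GC content was 57.3% for the S phase promoters, 57.7% for the mitosis promoters and 52.7% for all promoters. Such a match is a description of the sequence, not a binding site.

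**Figure D1:**
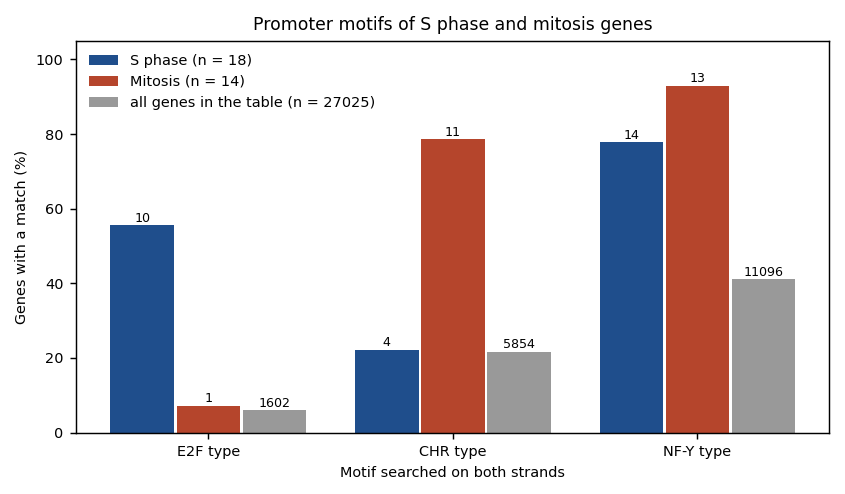
Share of genes (y axis, %) whose promoter window holds a match to each motif type (x axis), for S phase genes (n = 18), mitosis genes (n = 14) and all genes of the promoter table (n = 27025); the number above each bar is the count of genes. E2F-type letters were in 10 S phase genes and 1 mitosis gene, CHR-type letters in 4 and 11.

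The 250 bases before the start are shown for 5 members whose levels in GFP were at least 2-fold those in 1 or both of the other libraries, to let the 2 kinds of promoter be compared. They run 5′ to 3′ on the gene's own strand. Capitals mark TTTNNCGC in all 5, and also TTTGAA and TTCGAA in the 3 mitosis genes, on either strand. Mcm5 and Mcm6 are S phase genes and the others mitosis genes.
Mcm5 (chr8:75109259-75109508, plus strand): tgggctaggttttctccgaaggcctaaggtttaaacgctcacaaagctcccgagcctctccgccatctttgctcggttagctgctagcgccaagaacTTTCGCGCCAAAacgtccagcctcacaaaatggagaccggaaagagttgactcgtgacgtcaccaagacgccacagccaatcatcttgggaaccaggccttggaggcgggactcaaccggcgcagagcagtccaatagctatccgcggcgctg
Mcm6 (chr1:128359706-128359955, minus strand): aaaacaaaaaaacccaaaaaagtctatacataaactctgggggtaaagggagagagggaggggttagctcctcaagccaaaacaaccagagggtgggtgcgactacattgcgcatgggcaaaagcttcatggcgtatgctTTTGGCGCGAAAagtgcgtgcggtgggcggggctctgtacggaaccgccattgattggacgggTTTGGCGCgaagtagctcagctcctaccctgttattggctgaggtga
Cdk1 (chr10:69352913-69353162, minus strand): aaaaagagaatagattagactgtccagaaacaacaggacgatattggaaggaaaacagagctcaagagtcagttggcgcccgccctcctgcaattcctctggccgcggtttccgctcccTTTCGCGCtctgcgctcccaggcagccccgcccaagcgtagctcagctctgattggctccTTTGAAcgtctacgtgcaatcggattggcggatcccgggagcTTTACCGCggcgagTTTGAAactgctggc
Top2a (chr11:99024190-99024439, minus strand): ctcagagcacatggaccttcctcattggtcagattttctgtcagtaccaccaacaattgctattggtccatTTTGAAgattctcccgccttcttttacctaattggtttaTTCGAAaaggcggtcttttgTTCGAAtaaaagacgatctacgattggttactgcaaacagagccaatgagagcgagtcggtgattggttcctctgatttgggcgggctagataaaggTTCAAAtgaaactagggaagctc
Mki67 (chr7:135716380-135716629, minus strand): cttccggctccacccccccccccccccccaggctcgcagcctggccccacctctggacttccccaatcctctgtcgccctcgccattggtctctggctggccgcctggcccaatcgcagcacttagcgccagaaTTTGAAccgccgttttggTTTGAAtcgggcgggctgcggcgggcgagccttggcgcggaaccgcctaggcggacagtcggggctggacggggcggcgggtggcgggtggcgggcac
In Mcm5 and in Mcm6, matches on opposite strands overlap and form a run of 12 bases, and the run of Mcm6 is the reverse complement of that of Mcm5. Mcm6 has a further E2F-type match at position -47, counting back from -1 as the base before the start. Cdk1 is the one mitosis gene with both kinds, with E2F-type letters at -131 and -29 and CHR-type letters at -71 and -15. Top2a carries 4 CHR-type matches and 6 CCAAT boxes, and Mki67 2 and 3.

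Most of the 50 genes had their highest level in the Cntn2-eGFP library. GFP was the highest of the 3 libraries for 32 members, MHC for 13 and NEG for 5. Among 22235 genes with a mean level of 10 or more, GFP was highest for 41.4%, MHC for 31.5% and NEG for 27.2%. GFP was the lowest for 6 members (background 41.1%), MHC for 23 (32.7%) and NEG for 21 (26.2%). A gene is called higher or lower when its level plus 1 differed at least 2-fold and the higher library reached 20 (a fixed size, with no test behind it), and all 50 members reached that level in each comparison. Against MHC, 12 members were at least 2-fold higher in GFP (background 15.6% of 20879 genes) and 1 was at least 2-fold lower (background 16.4%). Against NEG, 16 were at least 2-fold higher (background 14.1% of 20814 genes) and 1 at least 2-fold lower (background 15.0%). The 2 comparisons share the GFP library. Ratios of any size above 1 in GFP were seen for 36 members against MHC (background 50.5%) and for 40 against NEG (background 50.9%). GFP was at least 2-fold above both others for 10 members, namely Mcm5, Mcm6, Tyms, Rrm1, Mki67, Top2a, Aurkb, Ccnd2, Cdkn2a and Cdkn2b, where 10.1% of the 22235 genes met that description. The median log2 ratio of the 50 was 0.52 against MHC and 0.55 against NEG, beside -0.00128 and 0.00761 over the 22235 genes. Scaled by total reads rather than by the deposited size factors, 19 members were at least 2-fold higher than in MHC, a scaling that raises the median of all genes by 0.17 on the log2 scale. Against NEG, the calls of Ccne1 and Mcm10 ended under TMM scaling, and those of Ccne1, Mcm10 and Cdc6 with a pseudocount of 10. Fewer cycling cells and less of these RNAs per cell cannot be told apart in sorted bulk RNA.

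**Figure D2:**
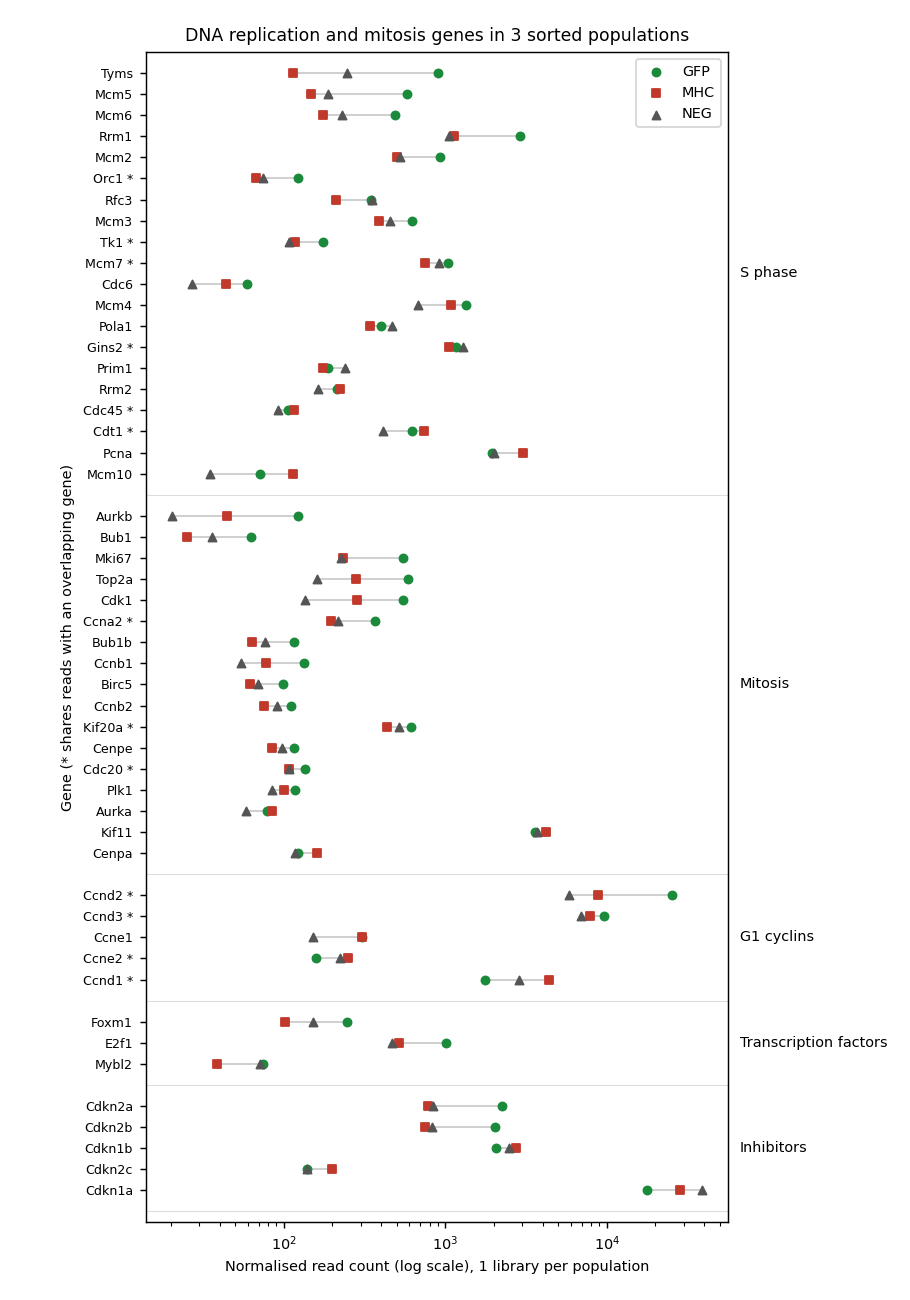
Level of each of the 50 genes (rows, grouped by role) in the 3 libraries, as normalised read count on a log axis; each symbol is 1 library and the grey line spans the 3. GFP was the highest library for 32 genes; an asterisk marks the 13 genes that share reads with an overlapping gene.

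**Figure D3:**
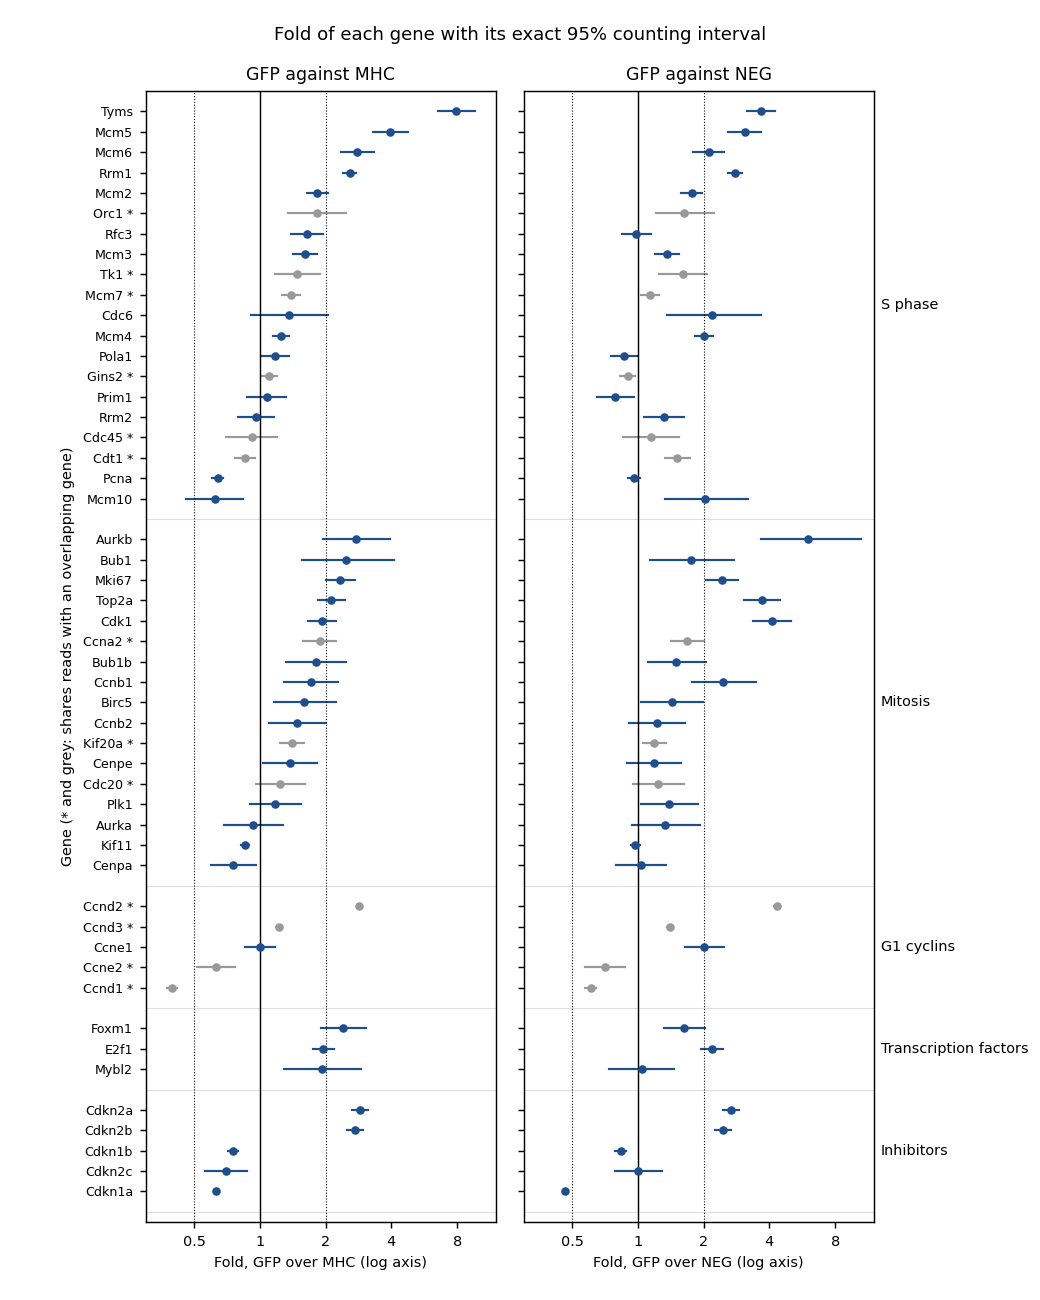
Fold of each gene in GFP over MHC (left) and over NEG (right) on a log axis, with exact 95% intervals that cover counting error only; dotted lines mark 0.5 and 2, and grey marks genes that share reads with an overlapping gene. Tyms reached 7.91-fold over MHC and Aurkb 6.02-fold over NEG, while Ccnd1 and Cdkn1a lay to the left of 1 in both panels.

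The sources used here do not give how reads in overlapping genes were assigned, so 13 members are uncertain: the span of each is overlapped by another gene whose read count is 25% or more of its own. These are Mcm7, Tk1, Cdc45, Cdt1, Gins2, Orc1, Ccna2, Cdc20, Kif20a, Ccne2, Ccnd1, Ccnd2 and Ccnd3. Without them, 11 members were at least 2-fold higher in GFP than in MHC and 0 lower. Reads carry no molecular identifiers, so all intervals given are exact 95% Clopper-Pearson intervals of counting error only.

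The S phase genes were led by Tyms and by 2 subunits of the replicative helicase. Of 20, 4 were at least 2-fold higher in GFP than in MHC (Tyms, Mcm5, Mcm6 and Rrm1), a share of 20% near the background of 15.6%, and 0 were lower, with a median log2 ratio of 0.46 and a range from -0.68 to 2.97. Against NEG, Mcm10 and Cdc6 joined these 4 (30.0%, background 14.1%), 0 were lower, and the median was 0.64. GFP was the highest library for 11 of the 20, MHC for 5 and NEG for 4.

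MCM2 to MCM7 form a ring of 6 different subunits, and all 6 of their genes were highest in GFP, but by unequal amounts. Mcm5 (ENSMUSG00000005410, chr8:75109528-75128439) had a level of 578 in GFP against 147 in MHC and 188 in NEG. Its level in GFP was 3.93-fold (95% interval 3.28 to 4.74) that in MHC and 3.08-fold (2.59 to 3.68) that in NEG. Mcm6 (ENSMUSG00000026355, chr1:128331591-128359656) had a level of 486 in GFP against 174 in MHC and 230.4 in NEG, which placed GFP 2.79-fold (2.35 to 3.33) above MHC and 2.11-fold (1.79 to 2.49) above NEG. Against MHC, the ratios of the other subunits stood closer to 1. Mcm2 was at 928, 505 and 525 in GFP, MHC and NEG, 1.84-fold (1.65 to 2.05) higher in GFP than in MHC. Mcm3 was at 619.7, 386 and 454, and Mcm4 at 1352, 1082 and 676. Mcm4 thus differed from the others in its second library, since MHC was 1.60-fold (1.45 to 1.77) above NEG. MHC lay below NEG for the 5 other subunits, though within counting error for Mcm2 (0.96-fold, 0.85 to 1.09). Mcm7, which is uncertain, was at 1040.2, 749.5 and 915.0. MCM10, a separate protein that helps to activate the helicase, went another way: Mcm10 was highest in MHC, at 71.3 in GFP against 114 in MHC and 35.02 in NEG. It rests on 31 to 113 reads per library, with MHC 1.61-fold (1.19 to 2.171) above GFP and 3.27-fold (2.18 to 5.03) above NEG.

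The 4 genes of nucleotide supply ranged in log2 ratio from -0.06 to 2.97 in GFP against MHC and from 0.39 to 1.87 in GFP against NEG. Tyms, which encodes the enzyme that makes thymidylate, had a level of 906 in GFP against 114 in MHC and 247 in NEG (ENSMUSG00000025747, chr5:30058202-30073617). It had the largest ratio of all 50 members in GFP against MHC, 7.91-fold (6.51 to 9.70), and was 3.66-fold (3.16 to 4.26) higher than in NEG. Tyms was also the one member that was at least 2-fold lower in MHC than in NEG. The large subunit of ribonucleotide reductase, Rrm1, was at 2909 in GFP against 1127 in MHC and 1049 in NEG, 2.58-fold (2.41 to 2.76) higher in GFP than in MHC. Rrm2, the small subunit whose supply limits the enzyme in cycling cells, was at 215, 224 and 164, with GFP and MHC within counting error of each other. The 2 subunits of this enzyme therefore did not differ in step. Tk1, the thymidine salvage kinase, is uncertain and was at 175, 117 and 108.

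Factors that load and fire origins were mixed. Cdc6, a loader of the helicase, was at 59.4 in GFP against 43.6 in MHC and 27.1 in NEG, on 24 to 65 reads, and was 2.19-fold (1.35 to 3.66) higher in GFP than in NEG. The other loaders, Orc1 and Cdt1, are uncertain: Orc1 was at 122, 66.9 and 74.6, and Cdt1 at 626, 733 and 412. The fork activators Cdc45 (106, 115 and 92.6) and Gins2 (1161, 1053 and 1290.1) are uncertain too and stayed within 1.25-fold between any 2 libraries. None of the 6 factors of loading and firing, Mcm10 included, was at least 2-fold higher or lower in GFP than in MHC.

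The 4 members of DNA synthesis at the fork were not highest in GFP. Pcna, which encodes the sliding clamp and is often used as a marker of proliferation, was at 1937 in GFP against 3021 in MHC and 2014 in NEG. MHC was 1.56-fold (1.47 to 1.65) above GFP and also above NEG, so Pcna and Mki67 were highest in different libraries. Pola1 and Prim1, subunits of the DNA polymerase alpha and primase complex, were at 402, 341 and 467 and at 188, 175 and 238. Rfc3, of the clamp loader, was at 347, 212 and 352. All 3 were highest in NEG, and all 4 genes of this group lay below 1 in GFP against NEG, with a median log2 ratio of -0.14. For Pcna and Rfc3, however, GFP and NEG did not differ beyond counting error. Scaled by total reads, the ratios of Pcna and Rfc3 in GFP against NEG were above 1, while those of Pola1 and Prim1 stayed below 1.

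Most mitosis genes had their highest level in GFP. It was the highest library for 14 of 17 (background 41.4%), MHC for 3 and NEG for 0. Against MHC, 4 were at least 2-fold higher in GFP (Aurkb, Bub1, Mki67 and Top2a; 23.5%, background 15.6%) and 0 lower, with a median log2 ratio of 0.67 and a range from -0.40 to 1.44. Against NEG, 5 were at least 2-fold higher (Aurkb, Cdk1, Top2a, Ccnb1 and Mki67; 29.4%, background 14.1%) and 0 lower, with a median of 0.51. Whether the S phase and mitosis groups differ from each other was not tested.

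Mki67, which encodes the Ki-67 protein that coats mitotic chromosomes, had a level of 545 in GFP against 233 in MHC and 225 in NEG (ENSMUSG00000031004, chr7:135689788-135716379). It was 2.34-fold (2.01 to 2.73) higher in GFP than in MHC, and MHC and NEG did not differ beyond counting error. Top2a, the DNA topoisomerase that untangles sister chromatids, was at 591, 279 and 160.4 in GFP, MHC and NEG. Its 3 libraries were all apart, with GFP 2.12-fold (1.84 to 2.45) above MHC and MHC 1.74-fold (1.41 to 2.14) above NEG. Cdk1, the kinase that drives entry into mitosis, had the same order, at 550.3 in GFP against 286 in MHC and 134 in NEG. GFP was 4.09-fold (3.36 to 5.03) above NEG for Cdk1, and 1.93-fold (1.67 to 2.23) above MHC, just short of 2-fold.

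The cyclin genes were also highest in GFP, but Ccnb1 alone had the order of Cdk1, with NEG above MHC for the others. Between MHC and NEG, none of these cyclin genes differed beyond counting error (for Ccnb1, MHC at 1.44-fold NEG, 0.99 to 2.11). Ccnb1 was at 133, 78.0 and 54.2 in GFP, MHC and NEG, and 2.46-fold (1.77 to 3.49) higher in GFP than in NEG. Ccnb2 was at 111, 75.0 and 90.4. Cyclin A2, which acts from S phase into mitosis, is encoded by Ccna2, an uncertain member at 367, 195 and 218.

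Among the mitotic kinases, Aurkb and not Aurka separated the libraries. Aurkb, the kinase of the chromosomal passenger complex, was at 122 in GFP against 44.6 in MHC and 20.3 in NEG, on 134, 44 and 18 reads. GFP was 2.75-fold (1.94 to 3.96) above MHC and 6.02-fold (3.67 to 10.5) above NEG, the largest ratio of any member in GFP against NEG. Birc5, which encodes survivin, a partner of Aurora B in that complex, was at 98.7, 61.8 and 68.9. The centrosome kinase gene Aurka was at 78.6, 84.1 and 58.7, and the Polo kinase gene Plk1 at 118, 100.3 and 84.7, both within counting error between GFP and MHC.

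Bub1 and Bub1b encode spindle checkpoint kinases. Bub1 was at 63.1 in GFP against 25.3 in MHC and 36.1 in NEG, on 25 to 69 reads, and 2.49-fold (1.56 to 4.11) above MHC. Bub1b was at 115, 63.8 and 76.8, 1.805-fold (1.32 to 2.48) above MHC and so within 2-fold. Bub3 and Mad2l1, checkpoint genes outside the 50, were chosen after their values were seen, so they do not stand for other checkpoint genes. Bub3 was at 1813, 1733 and 1908 and Mad2l1 at 307, 269 and 199.9. The checkpoint's target Cdc20, the activator of the anaphase-promoting complex, is uncertain and was at 134, 108 and 108.

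The 3 mitosis genes with the highest level in MHC were Aurka, Cenpa of the centromeres and the motor gene Kif11. Cenpa, the histone variant of centromeres, was at 122, 161 and 117, and MHC was 1.32-fold (1.05 to 1.68) above GFP. Cenpe, a kinesin of the kinetochore, was at 115, 84.1 and 97.1. Kif11, which encodes the kinesin that pushes spindle poles apart, was at 3599.6, 4196 and 3691, so all 3 libraries lay within 1.17-fold of each other. Per kilobase of gene span, introns included, Kif11 had 86.6 reads in GFP and Mki67 22.4, so Kif11 was the more abundant of these 2 on this scale. Kif20a, a kinesin of cytokinesis, is uncertain and was at 612, 437 and 515.

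The G1 cyclins, which pass growth signals to CDK4, CDK6 and CDK2, went in opposite directions. Ccnd2 (ENSMUSG00000000184, chr6:127125779-127151048) had a level of 25224 in GFP against 8865 in MHC and 5804 in NEG. It was 2.85-fold (2.78 to 2.92) higher in GFP than in MHC and 4.35-fold (4.22 to 4.48) higher than in NEG. Ccnd1 (ENSMUSG00000070348, chr7:144929931-144939869) was the reverse, at 1749.5, 4398 and 2877, and MHC was 2.51-fold (2.38 to 2.65) above GFP. Ccnd1 was the one member at least 2-fold lower in GFP than in MHC. Ccnd3 was at 9667, 7905 and 6924, highest in GFP by 1.22-fold (1.19 to 1.26). All 3 D cyclin genes are overlapped by another gene and are uncertain, and the overlap spans 1660 bases and 9330179D12Rik for Ccnd2 and 818 bases and Oraov1 for Ccnd1. The partner of Ccnd2 was lower in GFP than in MHC and NEG, at 5059, 7351 and 8152. The partner of Ccnd1 was at 1231, 1417 and 1256. The E cyclins, which trigger S phase, were not highest in GFP. Ccne1 was at 305, 306 and 151, so that GFP and MHC did not differ beyond counting error and each was 2.02-fold above NEG. Ccne2, uncertain, was at 157, 249.2 and 223.

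All 3 transcription factor genes of these programmes were highest in GFP. E2f1, an activator of S phase genes, was at 1014 in GFP against 519 in MHC and 465 in NEG, 1.95-fold (1.76 to 2.175) above MHC and 2.18-fold (1.94 to 2.44) above NEG. Foxm1, an activator of mitosis genes, was at 247, 102 and 151, 2.41-fold (1.91 to 3.06) above MHC and 1.63-fold (1.32 to 2.02) above NEG. Mybl2, which encodes B-MYB, was at 74.0, 38.5 and 71.2. For Mybl2, GFP was 1.92-fold (1.29 to 2.91) above MHC, while GFP and NEG did not differ beyond counting error.

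The 5 inhibitors divided into 2 that were highest in GFP and 3 that were not. Cdkn2a (ENSMUSG00000044303, chr4:89274471-89294653), which encodes p16INK4a and p19ARF, had a level of 2230.3 in GFP against 778 in MHC and 836 in NEG. Cdkn2b (ENSMUSG00000073802, chr4:89306289-89311032), which encodes the CDK4 and CDK6 inhibitor p15INK4b, had 2042, 751 and 830.3. The 2 genes lie 11.6 kb apart on the same strand and had nearly the same profile. Cdkn2a was 2.87-fold (2.64 to 3.11) and Cdkn2b 2.72-fold (2.50 to 2.96) higher in GFP than in MHC, and MHC and NEG did not differ beyond counting error for either. The table counts 1 value for Cdkn2a, so its 2 products cannot be told apart. Cdkn1a, which encodes the p53 target p21, was the reverse. Its level was 17829.7 in GFP against 28284 in MHC and 38573 in NEG, and it was the one member at least 2-fold lower in GFP than in NEG, where NEG stood 2.16-fold (2.13 to 2.20) above GFP. Scaled by total reads, this ratio was under 2-fold. Cdkn1b, which encodes p27, was at 2061, 2732 and 2469, and MHC was 1.33-fold (1.25 to 1.40) above GFP. Cdkn2c, which encodes p18INK4c, was at 139.9, 199.5 and 139, highest in MHC. The library with the higher S phase and mitosis medians thus had the lowest levels of Cdkn1a and Cdkn1b and the highest of Cdkn2a and Cdkn2b.

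Between the 2 populations without eGFP, few of the genes were 2-fold apart. In MHC against NEG, 4 of 50 were at least 2-fold higher (background 5.35% of 20572 genes) and 1 lower (background 5.21%). The 4 were Mcm10, Cdk1, Aurkb and Ccne1, and the lower gene was Tyms; with a pseudocount of 10 the calls of Aurkb and Ccne1 ended. MHC was above NEG by any amount for 26 of the 50 (background 48.6%). The median log2 ratio was -0.11 for S phase genes and 0.05 for mitosis genes, beside -0.01 over all measured genes. The 5 G1 cyclins were all above 1 in MHC, with a median of 0.61, while Foxm1 and Mybl2 were below 1.

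Genes of the same pathway outside the 50 were counted from 3 lists chosen by function, with earlier results of these data known. Among 52 other mitosis genes, 6 were at least 2-fold higher in GFP than in MHC (11.5%, under the background of 15.6%), 2 lower and 44 within 2-fold, with a median log2 ratio of 0.46. Against NEG, 16 were higher (30.8%, background 14.1%) and 1 lower, with a median of 0.61. The kinase gene Melk was at 89.6 in GFP against 31.4 in MHC and 30.5 in NEG, Gtse1 at 474, 182 and 132, and the cytokinesis gene Ect2 at 184, 79.0 and 104. Pttg1, which encodes securin, was lower in GFP than in MHC, at 78.6, 191 and 82.5. These genes are named for high or low ratios in GFP against MHC, so their direction there follows from that choice. The other mitosis genes had medians near those of the 17 members.

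Among 46 other S phase genes, 5 were at least 2-fold higher in GFP than in MHC (10.9%, under the background of 15.6%), 3 lower and 38 within 2-fold. Against NEG, 5 were higher (10.9%, background 14.1%) and 0 lower, with a median log2 ratio of 0.19. In GFP against MHC their median of 0.10 was nearer to that of all genes than the 0.46 of the 20 S phase members. Chaf1b, a subunit of the histone chaperone at forks, was at 581 in GFP against 146 in MHC and 134 in NEG. Pole, the leading-strand polymerase, was at 148, 42.5 and 54.2, and the exonuclease gene Exo1 at 34.7, 13.2 and 6.78. Chaf1b, Pole and Exo1 are named for their high ratios in GFP against MHC, so their place above MHC follows from that choice. Genes with repair and checkpoint roles made up the 3 lower ones, and each was highest in MHC. The uracil glycosylase gene Ung was at 65.8, 224 and 123, Rpa2 (single-strand DNA binding) at 306, 693 and 427, and the checkpoint kinase gene Chek1 at 89.6, 190.4 and 124.

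Among 32 other regulators, 6 were at least 2-fold higher in GFP than in MHC (18.8%, near the background of 15.6%) and 0 lower, with a median of 0.07. Against NEG, 4 were higher (12.5%, background 14.1%) and 0 lower, with a median of 0.37. The atypical E2F gene E2f8, a repressor of E2F targets, was at 394 in GFP against 59.8 in MHC and 24.9 in NEG, 6.59-fold (5.01 to 8.81) and 15.9-fold (10.3 to 25.6) higher in GFP. E2f2, an activator, was at 156, 36.5 and 24.9, 4.29-fold (2.98 to 6.32) above MHC. Cks1b, a partner of cyclin-dependent kinases, was at 699, 274 and 438. E2f8, E2f2 and Cks1b are named for their high ratios in GFP against MHC, so their place above MHC follows from that choice. Over the 32 regulators, GFP was the highest library for 16 (background 41.4%), MHC for 11 and NEG for 5.

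**Figure D4:**
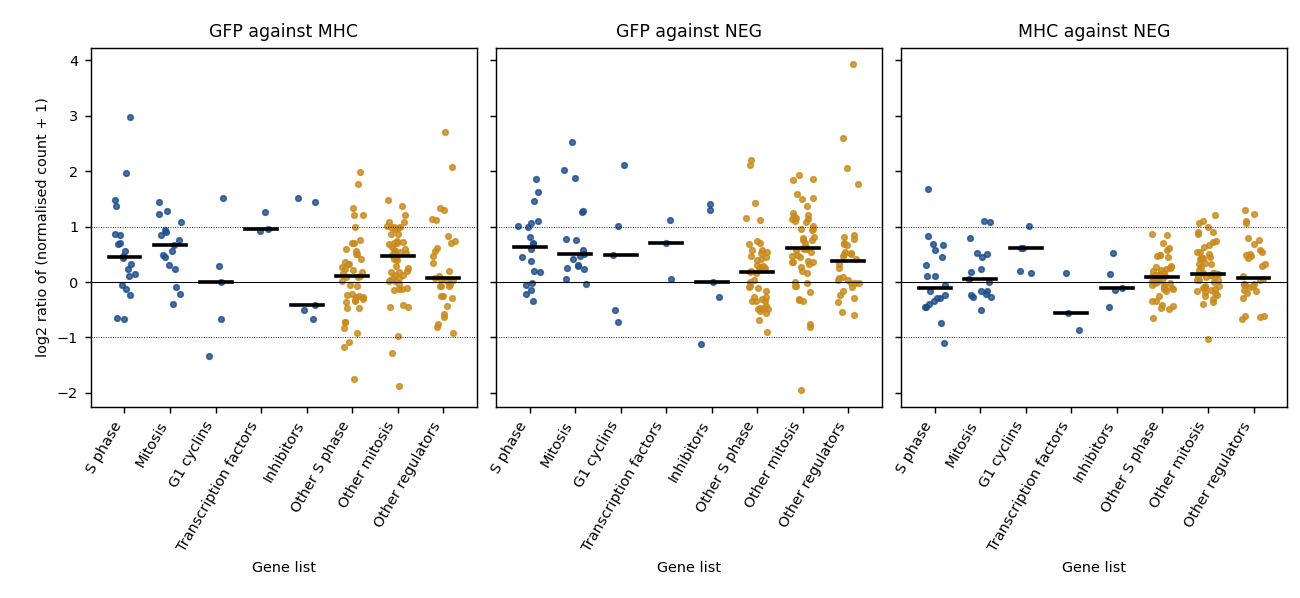
Log2 ratio of the normalised count plus 1 (y axis) for each gene of the 5 role groups among the 50 members (blue) and of 3 lists of other cell cycle genes (ochre), in the 3 comparisons; each point is 1 gene, the black bar is the median and dotted lines mark 2-fold. The mitosis medians were 0.67 for members and 0.46 for other genes in GFP against MHC, and 0.05 and 0.15 in MHC against NEG.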

How the data were processed

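RNA of 3 sorted populations, 1 library each, was sequenced as 50-base single reads from TruSeq libraries, per the labels' protocols. The authors deposited a table of signal values, namely gene read counts after division by the size factor of each library. FastQC 0.11.2, STAR 2.3.0e, bedtools 2.17.0, DESeq2 1.2.10 and the build mm10 are listed, with no roles, in the submitters' processing notes. The sources used here do not give the treatment of overlapping genes or of strand.

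Whole reads were recovered from the steps of the deposited values: 100% came out whole within 0.01 of a read, 1 read being worth 0.914 in GFP, 1.01 in MHC and 1.13 in NEG. No count model was fitted, since 1 library per population leaves no residual degrees of freedom. Ratios were taken on log2(value + 1), and genes past 2-fold were called if the higher of the 2 values reached 20. Medians cover genes with a mean of 10 or more. Fold intervals are exact 95% Clopper-Pearson intervals on recovered reads. All 50 members are named, and of each list of other genes the 3 highest and 3 lowest ratios of GFP against MHC among genes past 2-fold, leaving out overlapped ones. The members and lists were chosen with earlier results of these data known. Scaling by total reads and by edgeR 4.0.16 TMM factors, other pseudocounts, thresholds and filters were tried. The calling script was tested on simulated data. Promoters and motif matches came from the RefSeq table, with Python 3.11.15 and pandas 2.3.3.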

Additional observations from a re-analysis of the deposited data

How the results depend on the processing

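Members at least 2-fold higher in GFP than in MHC numbered 12 as reported, 19 when scaled by total reads and 23 at a threshold of 1.5-fold. Those at least 2-fold lower numbered 1, with 5 at 1.5-fold and 0 without overlapped members. In GFP against NEG the 1 lower member became 0 when scaled by total reads and 2 at 1.5-fold. In MHC against NEG the 4 higher members became 2 with a pseudocount of 10 and 10 at 1.5-fold, and the 1 lower member became 3 at 1.5-fold. The S phase median of GFP against NEG was 0.64, and 0.91 without overlapped members. Scaling by total reads raised the median log2 ratio of all genes by 0.17 in both comparisons with GFP. Among gene ratios whose counting interval excluded 1, it reversed 1, Gins2 in GFP against NEG, which went to 1.01-fold. Some ratios whose interval covered 1 also crossed 1, such as Rrm2 in GFP against MHC, from 0.96-fold to 1.08-fold. Of the 150 gene ratios, this scaling moved 29 others beyond their counting intervals. TMM scaling moved 1 of the 150 beyond its interval. The 16 members higher in GFP than in NEG became 14 under TMM scaling, where Ccne1 was at 1.98-fold and Mcm10 also lost its call, and 13 with a pseudocount of 10, where Cdc6 lost its call too. Genes with few reads, such as Aurkb with 18 in NEG, have the widest intervals. No paired analysis was possible because each population has 1 library.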

Other observations

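The 12-base run shared by the Mcm5 and Mcm6 promoters, TTTCGCGCCAAA on one strand and TTTGGCGCGAAA on the other, was picked out after it had been seen. It occurred in 4 of the 32851 promoters (0.0122%). The others were those of Mycn, which encodes the transcription factor N-MYC, and Msh3, a mismatch repair gene. Mycn had a level of 759.6 in GFP against 30.4 in MHC and 32.8 in NEG, and was 25.0-fold (95% interval of counting error 17.4 to 37.3) above MHC. Msh3, which shares reads with an overlapping gene, was at 985, 641 and 863. Mcm5 and Mcm6 were the genes the run was picked from, so their levels say nothing about it, and GFP was the highest library for 41.4% of all genes with a mean of 10 or more. No test was made on these 4 genes.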
